A study of Rattus norvegicus with 12 samples.

Results

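Vessel growth and vessel stability are steered by a pair of ligand and receptor families, the vascular endothelial growth factors (VEGF) and the angiopoietins. The 10 rat genes described here are 4 VEGF ligands (Vegfa, Vegfb, Vegfc and Pgf), 2 VEGF receptors (Kdr and Flt1), 3 angiopoietins (Angpt1, Angpt2 and Angpt4) and their receptor (Tek, also called Tie2). They were looked up by symbol among the 21797 genes of the expression table, and each had a single row. All 10 passed the filter on low values (at least 1 FPKM in at least 3 libraries), as did 12270 genes in all. FPKM scales the sequenced fragments of a gene by its length and by the size of the library, so levels can be compared between genes.

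VEGF-A binds both receptors. KDR carries most of the growth signal in endothelial cells, while FLT1 binds VEGF-A, VEGF-B and placental growth factor tightly, signals weakly, and in its soluble form takes VEGF away from KDR. VEGF-C is best known for lymphatic vessels. Angiopoietin 1, made mainly by cells around the vessel, activates Tie2 and holds vessels quiet and tight. Angiopoietin 2, made by endothelial cells, competes with it in many settings and loosens vessels at sites of remodelling.

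The libraries came from rats (Rattus norvegicus) that carried an implant for 2 or 4 weeks. MFN+GelMA and GelMA implants gave 3 libraries each at 2 weeks (2W) and 3 each at 4 weeks (4W). GelMA is gelatin methacryloyl, a light-cured hydrogel that all 4 groups received, and the series title pairs it with a microfiber, while the labels leave MFN unexplained. Strain, age and sex are not given in the labels, and the replicates may or may not be different rats, so a p-value here reflects spread between libraries that could be purely technical.

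The libraries held 11405095 to 14043167 fragments each, as inferred from the smallest step between deposited values. The labelled tissue is subcutaneous tissue or muscle. The summed level of 9 skeletal muscle fibre markers lay between 11.3 and 39.2 FPKM in 11 libraries and reached 982.2 FPKM in MFN+GelMA 2W replicate 2. Acta1, the actin of muscle fibres, was below 1 FPKM in those 11. Keratinocyte markers (5 genes) summed to at most 1.55 FPKM. A pair of GelMA libraries also stood apart. GelMA 2W replicate 3 had a sum of 147.3 FPKM over 15 blood endothelial markers, against 530.0 and 584.9 FPKM in the other GelMA 2W libraries, and GelMA 4W replicate 2 had 2118 FPKM of the fat cell gene Adipoq, against 32.0 and 18.0 FPKM in the other GelMA 4W libraries. With all 3 of these libraries left out, the same 5 of the 10 genes passed the test at 4 weeks as with them, and 0 passed at 2 weeks.

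Of the 10 genes, 7 matched an entry in the RefSeq promoter table (assembly GRCr8), whose windows span 300 bases around a transcript start. Angpt1, Angpt2 and Tek had no entry. Among the 7 matched genes, the windows of Kdr, Flt1 and Angpt4 are shown because their outcomes at 4 weeks differed. Kdr fell in MFN+GelMA tissue, Flt1 did not pass the test, and Angpt4 had the largest fall. Capitals mark GGAAG, the core bound by ETS-family factors, and GGGCGG, a GC box of the Sp1 type, on either strand (CTTCC and CCGCCC are the reverse complements). The Kdr window is chr14:32571813-32572112, the Flt1 window chr12:12333180-12333479 and the Angpt4 window chr3:160880480-160880779, all on the plus strand.
Kdr: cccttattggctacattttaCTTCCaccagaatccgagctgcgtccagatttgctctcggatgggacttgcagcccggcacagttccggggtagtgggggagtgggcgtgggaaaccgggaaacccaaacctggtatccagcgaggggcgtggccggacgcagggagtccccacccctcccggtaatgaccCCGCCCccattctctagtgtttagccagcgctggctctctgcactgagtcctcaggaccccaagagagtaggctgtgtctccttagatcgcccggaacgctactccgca
Flt1: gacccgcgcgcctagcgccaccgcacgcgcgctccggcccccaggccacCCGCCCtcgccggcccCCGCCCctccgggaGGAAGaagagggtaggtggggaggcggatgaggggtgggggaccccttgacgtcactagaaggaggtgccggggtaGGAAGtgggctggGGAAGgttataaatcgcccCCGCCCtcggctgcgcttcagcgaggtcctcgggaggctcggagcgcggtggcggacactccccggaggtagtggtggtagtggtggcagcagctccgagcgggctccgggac
Angpt4: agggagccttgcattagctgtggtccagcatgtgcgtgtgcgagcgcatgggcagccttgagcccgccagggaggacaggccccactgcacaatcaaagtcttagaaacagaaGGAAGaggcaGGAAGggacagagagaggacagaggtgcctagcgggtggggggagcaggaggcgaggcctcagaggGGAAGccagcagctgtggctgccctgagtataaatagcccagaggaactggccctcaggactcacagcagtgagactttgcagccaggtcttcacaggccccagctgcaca

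The Kdr window held 1 match to each motif, the Flt1 window held 3 matches to each, and the Angpt4 window held 3 of GGAAG and 0 of GGGCGG. Flt1 and Angpt4 each also held 1 TATAAA, and Kdr held 0. Among all 33469 promoter windows of the table, 70.1% held GGAAG, 33.1% GGGCGG and 14.2% TATAAA, so GGAAG is common and sets none of these windows apart. The letters ACGTG, 1 form of the core of the hypoxia response element, occurred in 0 of the 8 windows of the 7 matched genes. They occurred in 19.3% of all windows. The other form, GCGTG, had 2 matches in the Kdr window and 1 each in those of Flt1, Angpt4, Pgf and Vegfb. It had 0 in those of Vegfa and Vegfc, and 29.7% of all windows held it. A match is a string of letters and not a bound site, and its absence from 300 bases says nothing of the factor elsewhere.

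At 4 weeks, 4 of the 10 genes fell and 1 rose in MFN+GelMA tissue relative to GelMA tissue. Angpt4, Angpt2, Kdr and Tek fell, and Angpt1 rose (limma on log2(FPKM + 1), Benjamini-Hochberg adjusted p under 0.05). Over all genes tested 24.6% changed, 9.27% downward and 15.3% upward. The same 5 genes were those whose MFN+GelMA and GelMA libraries did not overlap, a pattern that 45.6% of all genes showed. The median log2 fold change of the 10 genes was -0.54, against 0.05 over all genes.

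**Figure D1:**
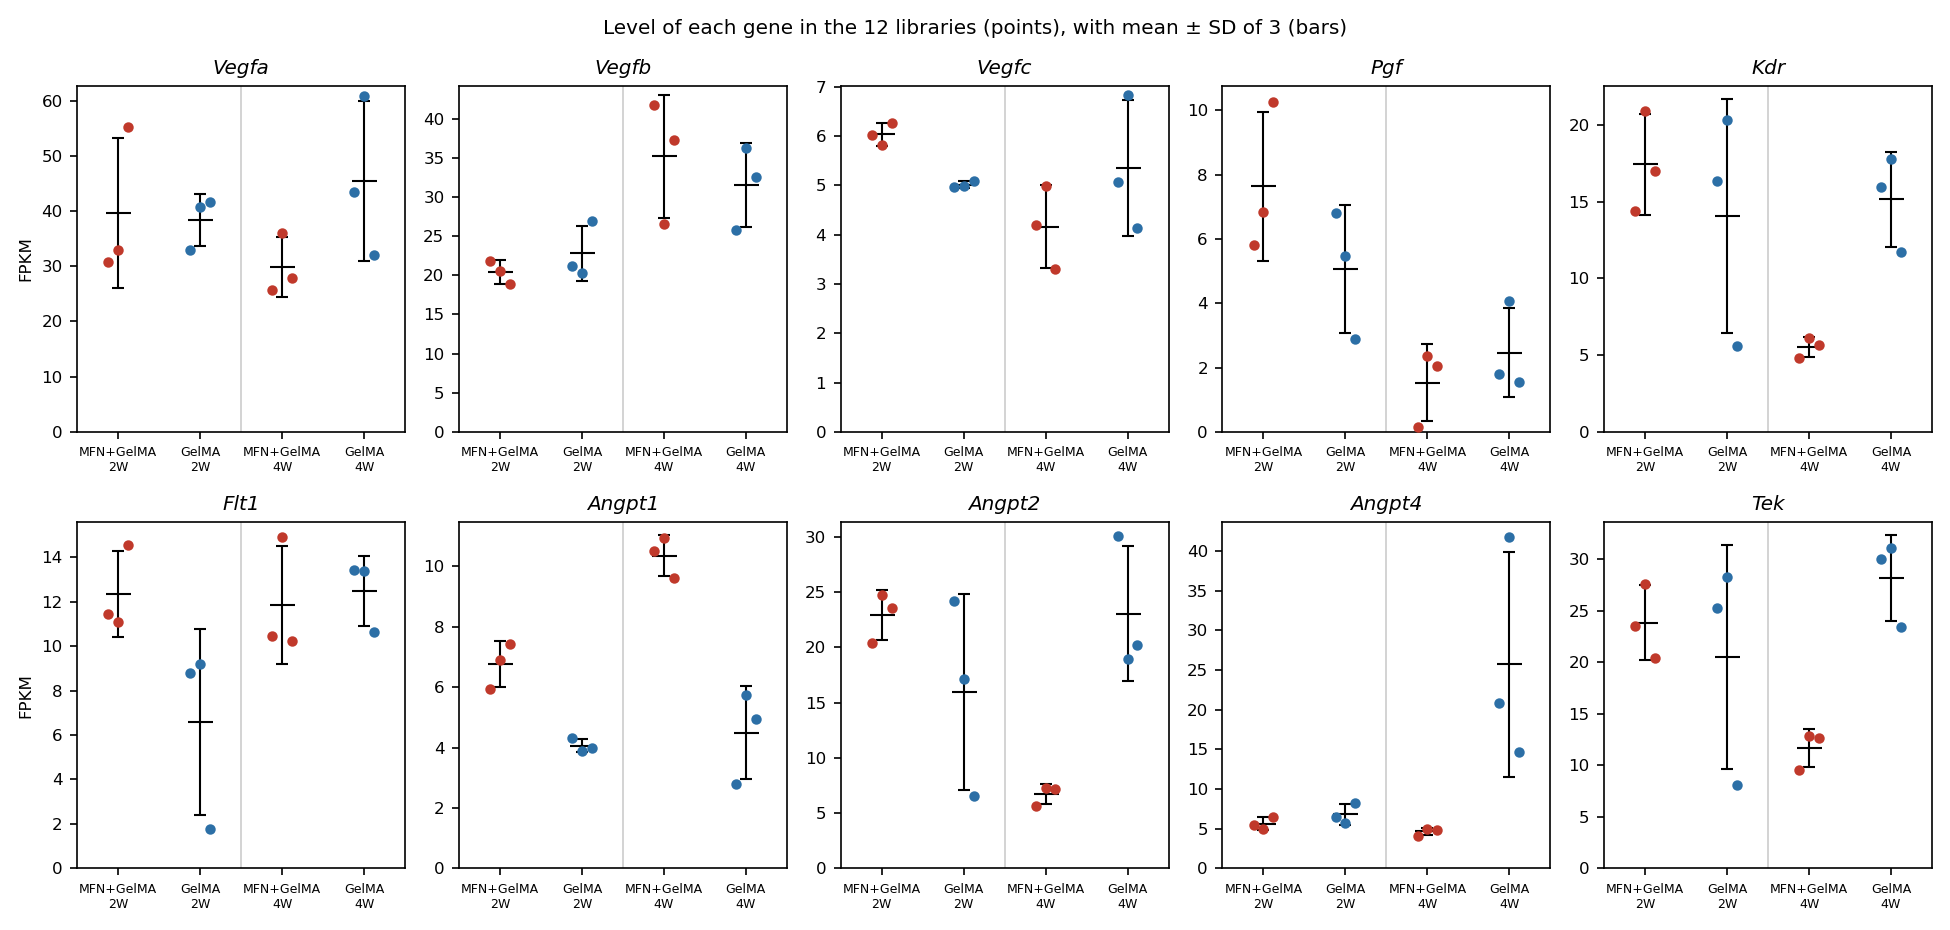
FPKM of each of the 10 genes (y axis, from 0) in the 12 libraries, by group (x axis); points are libraries, bars the mean ± SD of 3, red MFN+GelMA and blue GelMA. At 4W the red points lie below all blue points for Kdr, Angpt2, Angpt4 and Tek, above them for Angpt1, and among them for the other 5 genes.

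Kdr, the main signalling receptor for VEGF-A (rn6 chr14:34727622-34787183, plus strand), was at 4.79, 6.10 and 5.65 FPKM in MFN+GelMA 4W libraries and at 16.0, 17.8 and 11.7 FPKM in GelMA 4W libraries. Every MFN+GelMA library was below the lowest GelMA library. The log2 fold change was -1.30 (SE 0.35, limma adjusted p = 0.0198), a change on the log2(FPKM + 1) scale, which understates the change of low genes. Kdr lost its call when any of 4 single libraries was left out, replicate 1 or 2 of GelMA 4W or replicate 1 or 3 of MFN+GelMA 4W (limma adjusted p = 0.0505 to 0.0667), and over all 12 such fits the fold lay between -1.46 and -1.18.

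Flt1, the high-affinity receptor that restrains VEGF (rn6 chr12:9034307-9205905, plus strand), was at 10.5, 14.9 and 10.2 FPKM in MFN+GelMA 4W libraries and at 13.4, 13.4 and 10.6 FPKM in GelMA 4W libraries. The ranges overlapped almost fully. Its log2 fold change of -0.08 (SE 0.40, limma adjusted p = 0.911) had a 95% interval of -0.96 to 0.80, wide enough to hold a sizeable change either way. The log2 difference of Flt1 over Kdr within a library was 0.97 ± 0.21 in MFN+GelMA 4W and -0.25 ± 0.13 in GelMA 4W (SD, n = 3 each). Flt1 was thus the more abundant of the pair in every MFN+GelMA 4W library and the less abundant in every GelMA 4W library. The difference of 1.22 had an exact two-sided permutation p of 0.1, the smallest that 3 against 3 libraries can give, so it could not pass 0.05.

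Tek, the angiopoietin receptor Tie2 (rn6 chr5:113725716-113852799, plus strand), was at 9.57, 12.9 and 12.6 FPKM in MFN+GelMA 4W libraries and at 30.0, 31.1 and 23.4 FPKM in GelMA 4W libraries. The groups were far apart, with the highest MFN+GelMA library well under the lowest GelMA one. Tek fell by 1.20 on the log2 scale (SE 0.35, limma adjusted p = 0.0285). Leaving out any 1 of 5 of the 6 libraries compared (each but GelMA 4W replicate 3) ended the call (limma adjusted p = 0.0547 to 0.0963), with folds of -1.32 to -1.07 over all 12 such fits.

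Angpt2, the ligand of remodelling vessels (rn6 chr16:75904005-76110553, plus strand), was at 5.66, 7.31 and 7.17 FPKM in MFN+GelMA 4W libraries and at 30.1, 18.9 and 20.2 FPKM in GelMA 4W libraries. The log2 fold change was -1.62 (SE 0.35, limma adjusted p = 0.00607). The gene lies across the locus of Mcph1 on the other strand, and how reads were divided there is not given, so the Angpt2 level is uncertain to that extent. Mcph1 itself was at 0.734 to 2.53 FPKM in the 12 libraries and did not pass the test at 4 weeks (log2 fold change 0.22, limma adjusted p = 0.487).

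Angpt1, the Tie2 agonist of the vessel wall (rn6 chr7:81342279-81592206, minus strand), went the other way. It was at 10.5, 11.0 and 9.62 FPKM in MFN+GelMA 4W libraries and at 2.78, 5.74 and 4.96 FPKM in GelMA 4W libraries, and all MFN+GelMA libraries lay above all GelMA ones. The log2 fold change was 1.09 (SE 0.19, limma adjusted p = 0.00178). The balance of the 2 ligands turned over between the materials: the log2 difference of Angpt2 over Angpt1 was -0.56 ± 0.21 in MFN+GelMA 4W, where Angpt1 was the higher in each library, and 2.14 ± 0.79 in GelMA 4W, where Angpt2 was (SD, n = 3 each; exact two-sided permutation p = 0.1, the smallest possible).

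Angpt4, a further Tie2 ligand (rn6 chr3:147422094-147455670, plus strand), was at 4.12, 5.01 and 4.87 FPKM in MFN+GelMA 4W libraries and at 20.8, 41.7 and 14.6 FPKM in GelMA 4W libraries. Its log2 fold change of -2.11 (SE 0.29, limma adjusted p = 0.000458) was the largest of the 10. The 3 GelMA libraries differed widely among themselves, and the highest was replicate 2, the library with 2118 FPKM of Adipoq. Without it the fold was -1.71 (SE 0.20, limma adjusted p = 0.000328). White adipocyte markers were mostly lower in MFN+GelMA tissue at 4 weeks too. Adipoq was at 18.0 to 2118 FPKM in GelMA 4W. In GelMA 2W it was at 9.24 to 154 FPKM, where Angpt4 was at 5.65 to 8.26 FPKM. Of 9 white adipocyte markers, 7 (Adipoq, Plin1, Cidec, Lep, Retn, Lipe and Cfd) were lower in every MFN+GelMA 4W library than in any GelMA 4W library. None was higher in that way, and 45.6% of all genes had no overlap in either direction. Cfd alone of the 8 tested passed the test (log2 fold change -2.49, limma adjusted p = 0.0146), where 9.27% of all genes fell. The deposited Cfd locus overlaps those of 16 other rows, so its level is uncertain. The sum over the 9 was 4878 to 6032 FPKM in MFN+GelMA 4W and 2367 to 13174 FPKM in GelMA 4W, but most of it was Fabp4 (5513 ± 631.1 FPKM in MFN+GelMA 4W and 4246 ± 3542 FPKM in GelMA 4W, SD, n = 3 each), which overlapped between the groups. The part of fat cells in the Angpt4 level was not tested.

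**Figure D2:**
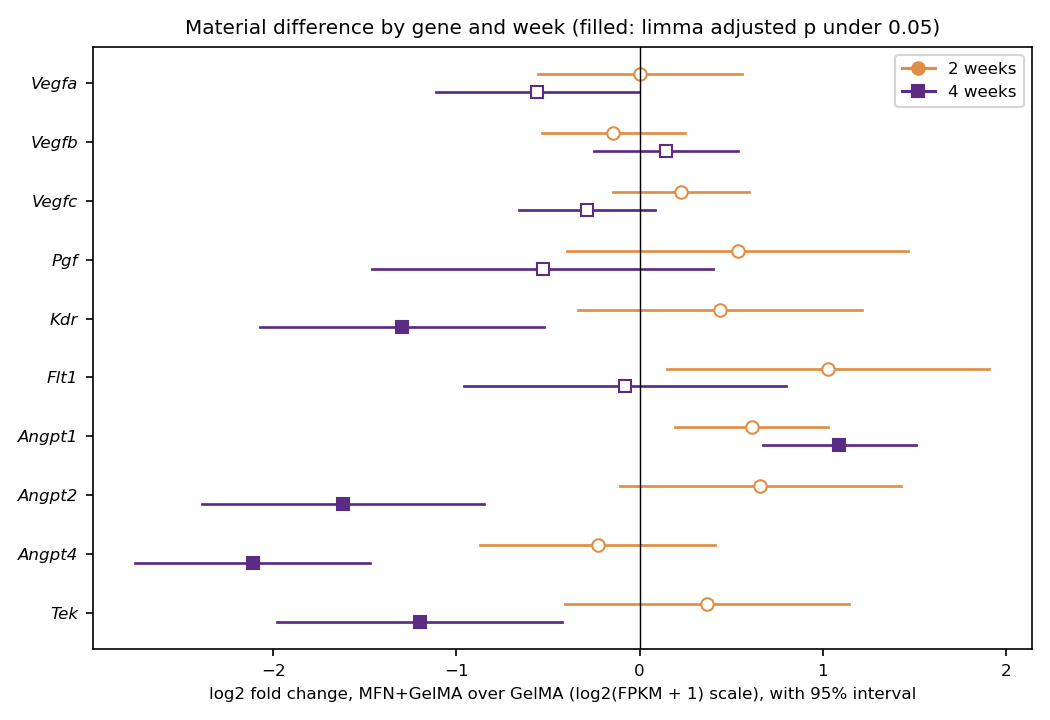
log2 fold change, MFN+GelMA over GelMA, on the log2(FPKM + 1) scale (x axis) for each gene (y axis) at 2 weeks (circles) and 4 weeks (squares); lines are 95% intervals and filled symbols have a limma adjusted p under 0.05. No symbol is filled at 2 weeks; at 4 weeks Kdr, Angpt2, Angpt4 and Tek are filled to the left of 0 and Angpt1 to the right.

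The 4 VEGF ligands did not pass the test at 4 weeks. Vegfa, the chief growth factor of sprouting vessels (rn6 chr9:17340340-17355681, plus strand), was at 25.8, 36.0 and 27.9 FPKM in MFN+GelMA 4W libraries and at 43.5, 60.9 and 32.1 FPKM in GelMA 4W libraries. The groups overlapped by 1 library on each side. The log2 fold change was -0.56 (SE 0.25, limma adjusted p = 0.131, 95% interval -1.11 to -0.00346). Of the 12 leave-one-out fits it passed the threshold in 1, without GelMA 4W replicate 3 (log2 fold change -0.78, limma adjusted p = 0.0486) and shrank to -0.33 without GelMA 4W replicate 2.

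Vegfb, known for FLT1 binding and for fatty acid uptake by endothelium (rn6 chr1:222239021-222242644, minus strand), was at 41.7, 26.5 and 37.3 FPKM in MFN+GelMA 4W libraries and at 25.7, 36.3 and 32.5 FPKM in GelMA 4W libraries (log2 fold change 0.14, limma adjusted p = 0.603). Vegfc, the lymphatic growth factor (rn6 chr16:40440206-40555576, minus strand), was at 4.20, 4.99 and 3.31 FPKM in MFN+GelMA 4W and at 5.07, 6.84 and 4.13 FPKM in GelMA 4W (log2 fold change -0.29, limma adjusted p = 0.242). Both pairs of groups overlapped. Pgf, placental growth factor, an FLT1 ligand (rn6 chr6:108994017-109004598, minus strand), was the lowest of the 10 at this time, at 0.164, 2.36 and 2.06 FPKM in MFN+GelMA 4W and 1.80, 4.05 and 1.54 FPKM in GelMA 4W (log2 fold change -0.53, SE 0.42, limma adjusted p = 0.398). The value of 0.164 FPKM rested on a deposited count-like value of 3.11, so Pgf was at the edge of detection in that library, and without it the fold was -0.04.

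At 2 weeks 0 of the 10 genes passed the test in limma, where 0.497% of all genes did, 0.171% upward and 0.326% downward (61 of 12270, with 1742 at an unadjusted p under 0.05). At an unadjusted p under 0.05 there were 2 of the 10, Angpt1 and Flt1. The MFN+GelMA 2W libraries lay above all GelMA 2W libraries for 3 genes, Vegfc, Flt1 and Angpt1, and groups without overlap made up 18.2% of all genes. The median log2 fold change of the 10 was 0.40, against 0.01 over all genes, and 8 of the 10 were positive.

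Angpt1 was at 5.93, 6.92 and 7.43 FPKM in MFN+GelMA 2W libraries and at 4.32, 3.90 and 3.98 FPKM in GelMA 2W libraries (log2 fold change 0.61, SE 0.19, limma adjusted p = 0.174). Vegfc was at 6.02, 5.81 and 6.27 FPKM in MFN+GelMA 2W and at 4.96, 4.98 and 5.09 FPKM in GelMA 2W (log2 fold change 0.23, SE 0.17, limma adjusted p = 0.573). For both genes the 3 libraries of a group stood close together and the groups were apart, but the spread that limma estimates over all 12 libraries was larger.

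Flt1 was at 11.4, 11.1 and 14.6 FPKM in MFN+GelMA 2W libraries and at 8.78, 9.19 and 1.76 FPKM in GelMA 2W libraries (log2 fold change 1.03, SE 0.40, limma adjusted p = 0.276). The value of 1.76 FPKM belongs to GelMA 2W replicate 3, the library low in endothelial markers, and without it the fold was 0.41 (limma adjusted p = 0.354). The other endothelial genes were lowest in that same library. Kdr was at 14.4, 20.9 and 17.0 FPKM in MFN+GelMA 2W and at 16.4, 20.3 and 5.58 FPKM in GelMA 2W (log2 fold change 0.44, limma adjusted p = 0.608). Tek was at 23.5, 27.7 and 20.4 FPKM in MFN+GelMA 2W and at 25.3, 28.2 and 8.10 FPKM in GelMA 2W (log2 fold change 0.37, limma adjusted p = 0.672). Angpt2 was at 20.4, 24.8 and 23.5 FPKM in MFN+GelMA 2W and at 24.2, 17.1 and 6.52 FPKM in GelMA 2W (log2 fold change 0.66, limma adjusted p = 0.424). Leaving out GelMA 2W replicate 3 turned the folds of Kdr and Tek negative, to -0.08 and -0.17, and left that of Angpt2 at 0.16.

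Among the remaining genes at 2 weeks, Vegfa was at 30.8, 32.9 and 55.3 FPKM in MFN+GelMA 2W and at 33.0, 40.7 and 41.6 FPKM in GelMA 2W, and its log2 fold change of 0.00164 turned to between -0.00817 and -0.03 under each of the 4 other scalings of the libraries. Vegfb ranged from 18.9 to 21.9 FPKM in MFN+GelMA 2W and from 20.3 to 26.9 FPKM in GelMA 2W. Pgf ranged from 5.80 to 10.3 FPKM in MFN+GelMA 2W and from 2.90 to 6.80 FPKM in GelMA 2W, and Angpt4 from 4.90 to 6.53 FPKM in MFN+GelMA 2W and from 5.65 to 8.26 FPKM in GelMA 2W. All of these ranges overlapped (limma adjusted p = 0.602 to 0.999).

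The material difference at 4 weeks was lower than that at 2 weeks for 3 of the 10 genes, Angpt2, Angpt4 and Kdr (interaction term). Over all genes 4.98% had a lower and 9.1% a higher difference, 14.1% in all. For Angpt2 the term was -2.28 (SE 0.50, limma adjusted p = 0.0134), for Angpt4 -1.88 (SE 0.41, limma adjusted p = 0.0139) and for Kdr -1.74 (SE 0.50, limma adjusted p = 0.0405). Without GelMA 2W replicate 3 these terms were -1.78, -2.01 and -1.22, and all 3 still passed (limma adjusted p = 0.00767, 0.0178 and 0.0187). For Angpt4 the term was -1.48 without GelMA 4W replicate 2 (limma adjusted p = 0.00924). Kdr failed in 8 of the 12 leave-one-out fits, with limma adjusted p up to 0.0922, and with no filter on low values (0.0649). Without the 3 libraries that stood apart its term was -0.97 (limma adjusted p = 0.0422). Tek had a term of -1.57 (SE 0.50, limma adjusted p = 0.0594). It passed in 2 of the 12 leave-one-out fits, where its limma adjusted p reached 0.129, and in 7 of the 16 other fits. Those included all 4 other scalings (limma adjusted p = 0.0432 to 0.0495). Without GelMA 2W replicate 3 the Tek term passed at -1.03 (limma adjusted p = 0.0215). Angpt1 had a term of 0.48 (limma adjusted p = 0.263), so a later growth of its difference was not shown.

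Over time in MFN+GelMA tissue, 3 of the 10 genes were lower at 4 than at 2 weeks and 1 was higher, where 8.11% of all genes fell and 11.2% rose. Kdr was at 4.79 to 6.10 FPKM at 4 weeks and at 14.4 to 20.9 FPKM at 2 weeks (log2 fold change -1.49, SE 0.35, limma adjusted p = 0.0132). Angpt2 was at 5.66 to 7.31 FPKM at 4 weeks and at 20.4 to 24.8 FPKM at 2 weeks (log2 fold change -1.63, SE 0.35, limma adjusted p = 0.00819). Pgf was at 0.164 to 2.36 FPKM at 4 weeks and at 5.80 to 10.3 FPKM at 2 weeks (log2 fold change -1.88, SE 0.42, limma adjusted p = 0.0104). In each of these the 4-week libraries all lay under the 2-week ones. Vegfb was at 26.5 to 41.7 FPKM at 4 weeks and at 18.9 to 21.9 FPKM at 2 weeks (log2 fold change 0.73, SE 0.18, limma adjusted p = 0.0152).

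Tek at -0.97 (limma adjusted p = 0.0792), Angpt1 at 0.55 (limma adjusted p = 0.0640) and Vegfc at -0.46 (limma adjusted p = 0.0817) fell short of the threshold, although the libraries of the 2 weeks did not overlap in any of them. Of the 12 leave-one-out fits, Tek passed in 1, Angpt1 in 2 and Vegfc in 1, with limma adjusted p up to 0.215, 0.172 and 0.255. Tek passed without GelMA 2W replicate 3 (limma adjusted p = 0.00208), and Angpt1 and Vegfc passed without GelMA 4W replicate 2 (0.0411 and 0.0484). Angpt1 also passed without GelMA 4W replicate 1 (limma adjusted p = 0.0142). These GelMA libraries enter the fits only through the shared estimate of spread. In a fit of the MFN+GelMA libraries alone, Tek and Angpt1 passed (limma adjusted p = 0.00624 and 0.0304). Of the 15 other fits, that one included, Tek passed in 3, Angpt1 in 1 and Vegfc in 1. In all, 7 of the 10 genes had no overlap between weeks in MFN+GelMA tissue, against 37.7% of all genes. The calls of Kdr and Vegfb were lost without MFN+GelMA 4W replicate 1 (limma adjusted p = 0.0510 and 0.0653). That of Vegfb was also lost without replicate 3 of MFN+GelMA 4W or replicate 3 of MFN+GelMA 2W (limma adjusted p = 0.0573 and 0.0503).

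In GelMA tissue 1 of the 10 genes changed with time, where 2.23% of all genes did, 0.497% upward and 1.74% downward. Angpt4 was at 14.6 to 41.7 FPKM at 4 weeks and at 5.65 to 8.26 FPKM at 2 weeks (log2 fold change 1.66, SE 0.29, limma adjusted p = 0.0215). Its difference between the materials at 4 weeks went with a high level in GelMA 4W, while the other 9 libraries all lay between 4.12 and 8.26 FPKM. The call was lost without replicate 1 or 2 of GelMA 2W or replicate 1 of GelMA 4W (limma adjusted p = 0.0644 to 0.0875) and in a fit of the GelMA libraries alone (0.127). Without GelMA 4W replicate 2, the library high in Adipoq, the fold was 1.25 (SE 0.20, limma adjusted p = 0.0125). Flt1 was the other gene without overlap between weeks in GelMA (24.4% of all genes had none), at 10.6 to 13.4 FPKM at 4 weeks and 1.76 to 9.19 FPKM at 2 weeks (log2 fold change 1.04, limma adjusted p = 0.202). Without GelMA 2W replicate 3, the library low in endothelial markers, that fold was 0.43 (limma adjusted p = 0.283). The material and time comparisons share libraries and are not independent of each other.

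By level, Vegfa stood first in every group but MFN+GelMA 4W, where Vegfb did, and Angpt4, Angpt1 or Pgf stood last. In MFN+GelMA 2W, Vegfa (39.7 ± 13.6 FPKM, SD, n = 3) was above Tek, Angpt2, Vegfb, Kdr and Flt1, whose neighbouring ranges overlapped. In GelMA 2W, Vegfa (38.5 ± 4.72 FPKM) was likewise above Vegfb, Tek, Angpt2 and Kdr, whose neighbouring ranges overlapped. In MFN+GelMA 4W the order was different: Vegfb (35.2 ± 7.80 FPKM) and Vegfa (29.9 ± 5.39 FPKM) overlapped at the top, and Flt1 (11.9 ± 2.64 FPKM), Tek (11.7 ± 1.85 FPKM) and Angpt1 (10.4 ± 0.681 FPKM) overlapped below them. Angpt2 (6.71 ± 0.915 FPKM), Kdr (5.51 ± 0.665 FPKM), Angpt4 (4.67 ± 0.481 FPKM) and Vegfc (4.16 ± 0.838 FPKM) each overlapped the next, and Pgf (1.53 ± 1.19 FPKM) was below all of them. In GelMA 4W, Vegfa (45.5 ± 14.5 FPKM), Vegfb (31.5 ± 5.35 FPKM), Tek (28.2 ± 4.16 FPKM), Angpt4 (25.7 ± 14.2 FPKM) and Angpt2 (23.1 ± 6.11 FPKM) each overlapped the next. Angpt2 lay above Kdr (15.2 ± 3.11 FPKM) and Flt1 (12.5 ± 1.59 FPKM), which overlapped each other, while the lowest Angpt4 value, 14.6 FPKM, lay within the range of Kdr. Angpt1 (4.49 ± 1.53 FPKM) was next to last there, between Vegfc and Pgf.

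Kdr and Tek moved with most markers of blood endothelium. Flt1 overlapped between the materials at 4 weeks, as did 2 of the 15 markers. The summed level of the 15 endothelial markers was 183.2 to 296.3 FPKM in MFN+GelMA 4W libraries and 455.7 to 651.1 FPKM in GelMA 4W libraries, and at 2 weeks 521.8 to 617.7 FPKM in MFN+GelMA and 147.3 to 584.9 FPKM in GelMA. At 4 weeks all 15 had a negative fold, with a median of -1.21, and 3 passed the test, where 9.27% of all genes fell. They were Aqp1 (a water channel, log2 fold change -1.21), Emcn (endomucin, a venous and capillary surface protein, -1.79) and Sox17 (an arterial transcription factor, -1.48). The groups did not overlap in 13 of the 15, nor in 45.6% of all genes. Eng (40.0 ± 10.2 FPKM in MFN+GelMA 4W, 43.6 ± 4.90 FPKM in GelMA 4W) and Ecscr (9.61 ± 2.76 and 11.4 ± 0.729 FPKM) overlapped (SD, n = 3 each). In these bulk samples, fewer endothelial cells and less RNA per cell cannot be told apart.

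Set against the mean log2(FPKM + 1) of the 15 markers in the same library, Kdr stood at -1.02 ± 0.20 in MFN+GelMA 4W and -0.82 ± 0.06 in GelMA 4W (SD, n = 3 each; difference -0.20, exact permutation p = 0.3). Tek stood at -0.06 ± 0.13 in MFN+GelMA 4W and 0.04 ± 0.10 in GelMA 4W (difference -0.11, exact permutation p = 0.2). The fall of both receptors was thus much smaller relative to the markers. Flt1 stood apart, at -0.05 ± 0.30 in MFN+GelMA 4W and -1.07 ± 0.14 in GelMA 4W, with no overlap between the groups (difference 1.01, exact permutation p = 0.1, 0.2 after adjustment over the 6 such tests). At 2 weeks Flt1 stood at -1.13 ± 0.31 in MFN+GelMA and -1.54 ± 0.04 in GelMA (difference 0.41, exact permutation p = 0.1). Tek did not overlap at 2 weeks either, at -0.23 ± 0.09 in MFN+GelMA and 0.02 ± 0.16 in GelMA (difference -0.25, exact permutation p = 0.1), while Kdr stood at -0.67 ± 0.19 in MFN+GelMA and -0.49 ± 0.21 in GelMA (difference -0.18, exact permutation p = 0.4). All these tests were two-sided and 0.1 is the smallest p they can give, so none could pass 0.05.

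**Figure D3:**
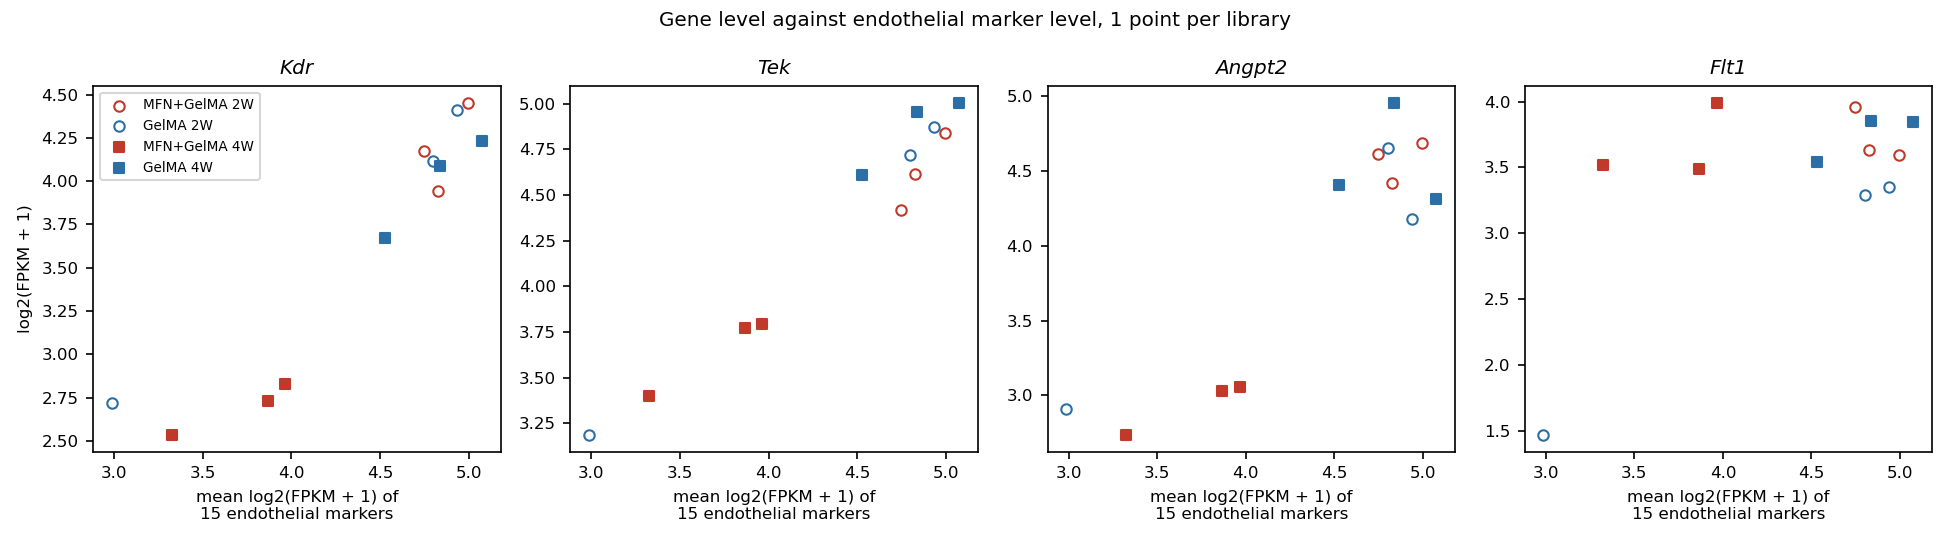
Level of Kdr, Tek, Angpt2 and Flt1 as log2(FPKM + 1) (y axes) against the mean log2(FPKM + 1) of 15 endothelial markers (x axes), 1 point per library; red MFN+GelMA, blue GelMA, open circles 2W, filled squares 4W. The 3 MFN+GelMA 4W libraries and GelMA 2W replicate 3 lie at the low end of both axes for Kdr, Tek and Angpt2, while for Flt1 the MFN+GelMA 4W libraries lie as high as the GelMA 4W ones and GelMA 2W replicate 3 alone is low.

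Angpt2 followed the same markers, and within a library its log2 difference over Tek was -0.72 ± 0.04 in MFN+GelMA 4W and -0.30 ± 0.35 in GelMA 4W (SD, n = 3 each; exact permutation p = 0.2). The log2 difference of Vegfa over Kdr was 2.24 ± 0.13 in MFN+GelMA 4W and 1.50 ± 0.19 in GelMA 4W (exact permutation p = 0.1). Vegfa stood higher relative to Kdr in each MFN+GelMA 4W library than in any GelMA 4W library. At 2 weeks the material difference was 0.05 for Angpt2 over Angpt1, 0.59 for Flt1 over Kdr, -0.44 for Vegfa over Kdr and 0.29 for Angpt2 over Tek, with exact permutation p between 0.2 and 1.

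**Figure D4:**
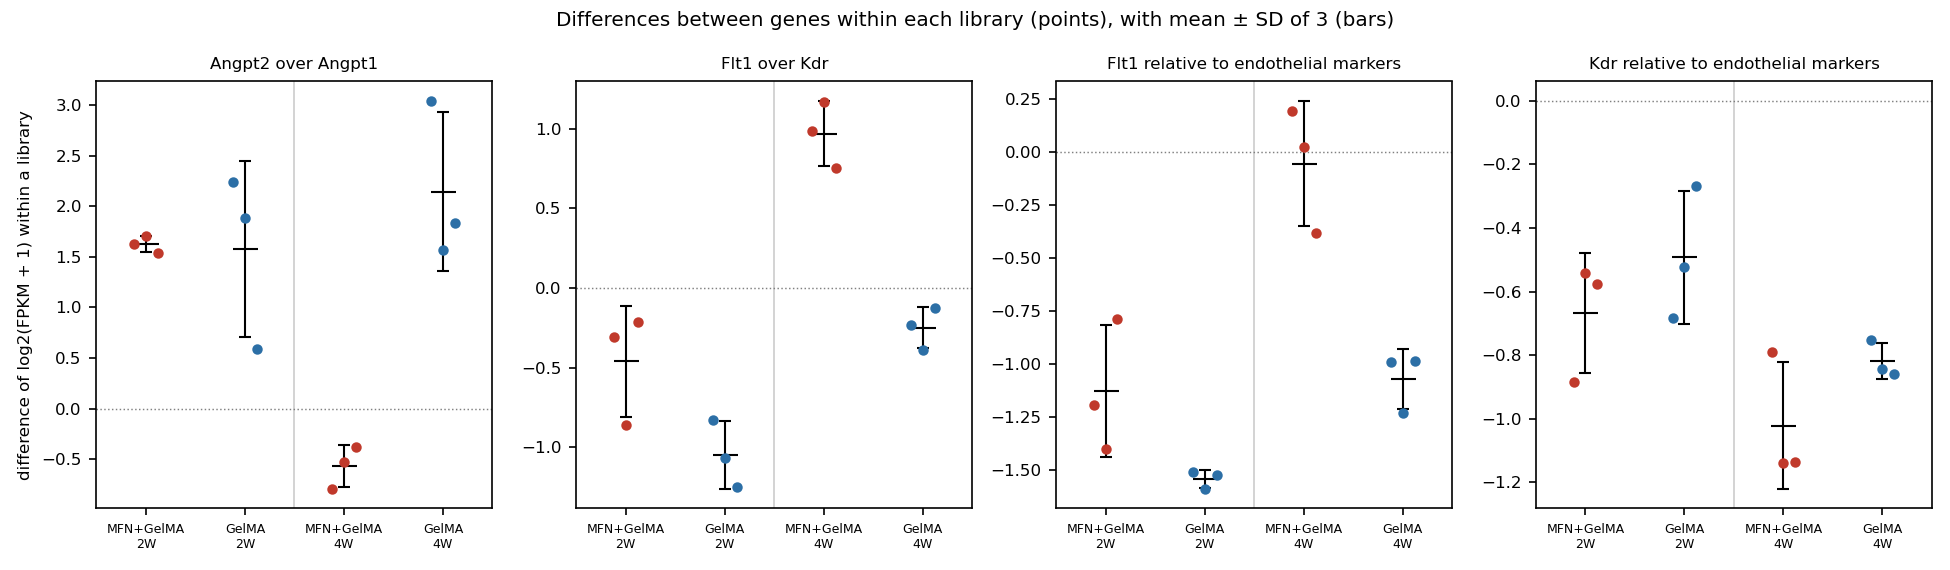
Differences of log2(FPKM + 1) between genes, or between a gene and the mean of 15 endothelial markers, within each library (y axes) by group (x axes); points are libraries and bars the mean ± SD of 3. In MFN+GelMA 4W Angpt2 over Angpt1 is below 0 and Flt1 over Kdr above 0, each on the other side of 0 from all 3 GelMA 4W libraries.

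Across the 12 libraries, on log2(FPKM + 1), Kdr, Tek and Angpt2 tracked each other, with Pearson r of 0.94 for Kdr and Tek, 0.93 for Kdr and Angpt2 and 0.92 for Angpt2 and Tek. Kdr and Flt1 had r = 0.37. These libraries share groups, depth and the endothelial content given above, so the values are a description only. Among 10010 genes of at least 2 FPKM on average, those most like Kdr were Mprip (r = 0.985), Pcdh12 (0.980), Hspa12b (0.975) and Efna1 (0.972), and those most like Tek were Clec14a (0.989), Rgs4 (0.987), Emcn (0.985) and Adgrf5 (0.983). Angpt2 was most like Emcn (0.955), Efna1 (0.945), Tspan2 (0.943) and Tnfrsf26 (0.941). Angpt1 was most like Cst7 (0.930), Hs2st1 (0.929), Aldoa (0.927) and Cyp1b1 (0.925), and Vegfa was most like Psat1 (0.905), Ppp1r9b (0.903), Znf768 (0.875) and Pabpn1 (0.873).

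Markers of other cell types moved as well at 4 weeks, where 15.3% of all genes rose and 9.27% fell. Pericyte and smooth muscle markers (10 genes) summed to 269.6 to 357.0 FPKM in MFN+GelMA 4W and 474.5 to 659.3 FPKM in GelMA 4W, and 5 of the 10 fell, led by Abcc9 (log2 fold change -1.83) and Kcnj8 (-1.61), the subunits of a pericyte potassium channel. The other 5 did not pass the test, among them Cspg4 (0.77) and Des (0.47), the 2 of the list with a positive fold. Angpt1 rose (log2 fold change 1.09), and which cells made it in this tissue was not tested. Macrophage markers (10 genes) summed to 2718 to 3226 FPKM in MFN+GelMA 4W and 1900 to 2383 FPKM in GelMA 4W, and 5 of the 10 rose, among them Ptprc (the leukocyte surface protein CD45, 1.51) and Laptm5 (1.27). The complement genes C1qa (-0.09) and C1qb (-0.15) and the mannose receptor Mrc1 (-0.20) had negative folds and did not pass. Of 5 fibroblast markers 4 fell and 1 rose. The part of these cell types in the levels of the 10 genes was not tested.

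In 8 further lists of the pathway, 48 of 101 genes tested passed at 4 weeks, where 24.6% of all genes did (15.3% rose and 9.27% fell). Of the 7 further VEGF and Tie genes 2 rose and 1 fell, counts too small to set against those shares. Nrp1 and Nrp2 are neuropilins, co-receptors for VEGF and semaphorins that macrophages and other cells carry too. Nrp1 was at 122.4, 95.3 and 120.6 FPKM in MFN+GelMA 4W and at 61.8, 63.2 and 69.0 FPKM in GelMA 4W (log2 fold change 0.79, SE 0.13, limma adjusted p = 0.00156). Nrp2 was at 41.4, 47.1 and 43.3 FPKM in MFN+GelMA 4W and at 20.0, 22.8 and 29.8 FPKM in GelMA 4W (log2 fold change 0.85, SE 0.14, limma adjusted p = 0.00111). The co-receptors thus rose where Kdr fell, and both differed between the weeks in their material difference (interaction 1.03 and 0.91, limma adjusted p = 0.00773 and 0.0121). Svep1, a matrix protein that binds the Tie1 receptor, fell to 13.3 ± 2.27 FPKM in MFN+GelMA 4W, against 28.9 ± 9.85 FPKM in GelMA 4W (SD, n = 3 each; log2 fold change -1.03, limma adjusted p = 0.00295).

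Ptprb, the phosphatase VE-PTP that switches Tie2 off, was at 3.29 ± 0.837 FPKM in MFN+GelMA 4W and 8.84 ± 1.55 FPKM in GelMA 4W (log2 fold change -1.21, limma adjusted p = 0.068). Vegfd, listed under its older symbol Figf, was at 22.6 ± 4.06 FPKM in MFN+GelMA 4W and 28.4 ± 3.41 FPKM in GelMA 4W (log2 fold change -0.32, limma adjusted p = 0.152), and Flt4, the receptor of VEGF-C and VEGF-D, at 1.61 ± 0.343 FPKM in MFN+GelMA 4W and 1.96 ± 0.498 FPKM in GelMA 4W (log2 fold change -0.18, limma adjusted p = 0.703). Tie1, the partner receptor of Tek, was at 54.0 ± 4.86 FPKM in MFN+GelMA 4W and 53.0 ± 3.95 FPKM in GelMA 4W (log2 fold change 0.02, limma adjusted p = 0.925). Tie1 did not follow the other endothelial genes in GelMA 2W replicate 3 either: it was at 60.9 FPKM there, where Cdh5, the endothelial cadherin, was at 27.4 FPKM, against 113.5 and 128.2 FPKM in the other GelMA 2W libraries.

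Of 20 genes that respond to VEGF and Notch signals in sprouting vessels, 5 fell and 4 rose at 4 weeks, where 9.27% of all genes fell and 15.3% rose, so the share that rose was near that of all genes. The median log2 fold change of the 20 was -0.69, against 0.05 over all genes. Apln, a peptide of tip cells, was at 1.32 ± 0.163 FPKM in MFN+GelMA 4W and 6.96 ± 0.424 FPKM in GelMA 4W (SD, n = 3 each; log2 fold change -1.78, limma adjusted p = 1.48e-05). Esm1, a tip cell proteoglycan, was at 0.331 ± 0.185 FPKM in MFN+GelMA 4W and 4.47 ± 1.42 FPKM in GelMA 4W (log2 fold change -2.02, limma adjusted p = 0.00105). Among the genes that rose were Rcan1 (a calcineurin inhibitor, log2 fold change 0.92), Cxcr4 (a chemokine receptor, 0.89) and Pdgfb (the growth factor that recruits pericytes, 0.91), the last 2 of them made by leukocytes as well as by endothelium.

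Downstream of Tie2, 4 of 11 genes rose and 2 fell at 4 weeks, beside the same 15.3% and 9.27% of all genes. Dok2 (an adaptor, log2 fold change 0.94), Itgb1 (integrin beta 1, 0.52) and Shc1 (an adaptor, 0.36) rose, and Nos3 (endothelial nitric oxide synthase, -1.17) and Klf2 (a flow-responsive transcription factor, -0.78) fell, with limma adjusted p between 0.00338 and 0.0178 for the 5. The Nos3 locus overlaps that of Atg9b, so its level is uncertain. Of 18 genes that carry the VEGF signal inside the cell, 5 rose and 5 fell. Plcg1, the phospholipase bound directly by KDR, was at 25.8 ± 2.73 FPKM in MFN+GelMA 4W and 51.1 ± 4.97 FPKM in GelMA 4W (SD, n = 3 each; log2 fold change -0.96, limma adjusted p = 0.00163). Pxn and Ptk2, focal adhesion proteins, fell too (log2 fold changes -0.75 and -0.59), while the kinases Map2k1 (0.93) and Prkcb (1.53) rose.

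Of 9 VEGF antagonists and matrix partners tested, 1 rose and 3 fell at 4 weeks (15.3% and 9.27% of all genes). Thbs1, the angiogenesis inhibitor thrombospondin 1, was at 27.2 ± 6.33 FPKM in MFN+GelMA 4W and 7.93 ± 3.95 FPKM in GelMA 4W (SD, n = 3 each; log2 fold change 1.75, limma adjusted p = 0.0131). Serpinf1 (the antiangiogenic factor PEDF, log2 fold change -1.07), Sparc (a matrix protein that binds VEGF, -0.83) and Vash1 (vasohibin 1, -0.58) fell. Of 14 other growth factors and receptors of vessels tested, 5 rose and 2 fell. Met (the receptor of hepatocyte growth factor, 1.93), its ligand Hgf (1.09), Pdgfa (1.51), Tgfb1 (0.78) and Plxnd1 (a semaphorin receptor, 0.69) rose, with limma adjusted p between 0.000155 and 0.00218.

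Vegfa is a classic target of the hypoxia-inducible factors. Of 15 other targets tested at 4 weeks, 7 rose and 1 fell, where 15.3% of all genes rose and 9.27% fell. Their median log2 fold change was 0.57, against 0.05 over all genes. Slc2a1, the glucose transporter GLUT1, was at 77.6 ± 10.3 FPKM in MFN+GelMA 4W and 14.9 ± 5.89 FPKM in GelMA 4W (SD, n = 3 each; log2 fold change 2.36, limma adjusted p = 0.00192). The glycolytic enzymes Pgk1 (1.35) and Ldha (1.24), the oxidase Ero1a (1.47) and the collagen hydroxylase P4ha1 (1.02) rose as well. Of the 15 targets, 12 had a positive fold, so Vegfa did not share the direction of most of them. Vldlr was at 12.5 FPKM on average in MFN+GelMA 4W and 20.5 FPKM in GelMA 4W. P4ha2 (51.4 and 67.2 FPKM) and Adm (19.9 and 22.6 FPKM) had lower means in MFN+GelMA 4W too. The Vegfa fold of -0.56 had a 95% interval wholly below 0, though it did not pass the adjusted test. Of the 7 genes of oxygen sensing tested, Egln3 alone passed and rose (1.24, limma adjusted p = 0.00587), where 15.3% of all genes rose. Hif1a (0.09, limma adjusted p = 0.782) and Epas1 (-0.92, limma adjusted p = 0.125), which encode the alpha subunits of HIF-1 and HIF-2, did not pass the test.

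**Figure D5:**
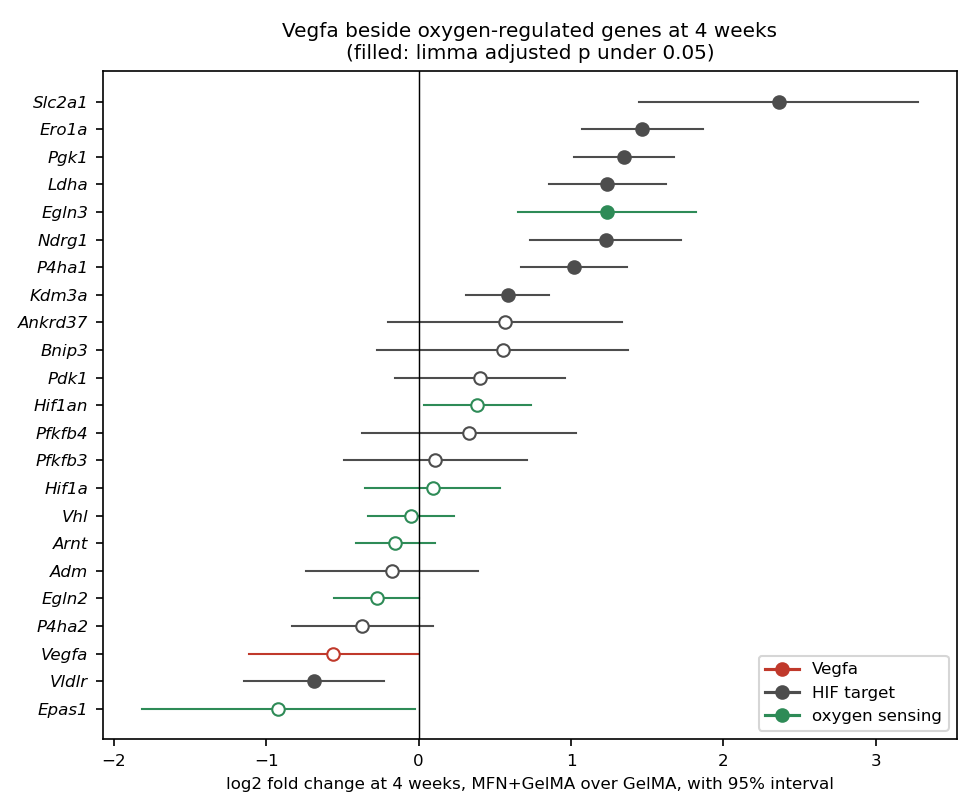
log2 fold change at 4 weeks, MFN+GelMA over GelMA (x axis), of Vegfa (red), 15 targets of hypoxia-inducible factor (grey) and 7 oxygen-sensing genes (green), sorted by value (y axis); lines are 95% intervals and filled points have a limma adjusted p under 0.05. Vegfa, at -0.56, lies above Vldlr and Epas1 alone, while 7 targets are filled to the right of 0, up to 2.36 for Slc2a1.

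None of the listed genes outside the 10 changed at 2 weeks in the 8 further pathway lists (limma, 0 of 101 tested, where 0.497% of all genes changed). At an unadjusted p under 0.05 there were 25 of the 101, and 14.2% of all genes. In MFN+GelMA tissue, 4 against 2 weeks, 39 of the 101 passed, where 19.3% of all genes did. Apln fell by 1.71, Dll4 (the Notch ligand of tip cells) by 1.49 and Nrp1 rose by 0.85 on the log2 scale, while Vegfd fell by 0.68 (limma adjusted p = 8e-05, 0.0104, 0.0015 and 0.0105). In GelMA tissue over the same weeks 1 of the 101 passed, where 2.23% of all genes did. It was P4ha1, which fell by 0.96 (limma adjusted p = 0.0182).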

How the data were processed

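The series measured RNA in rat tissue around GelMA or MFN+GelMA implants, 3 libraries for each material at 2 and 4 weeks. Per the labels' protocols, ribosomal RNA was removed and stranded total RNA libraries were made. The submitters' processing notes name build rn6, Cuffdiff, HISAT2 and cutadapt 1.9.3. The annotation, the strand handling and the remaining versions were not given in the sources used here. The deposited table held 22062 rows. Per the file headers, 12 of its columns are FPKM as the authors computed them, the unit tested here. The other 12 deposited columns, headed Counts, hold a count-like signal that is not whole numbers, so no count model was used. Depth was inferred from its steps. Genes near 1 FPKM rest on few fragments and are the least precise.

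Rows of 1 symbol were summed (21797 genes), and 12270 genes reaching 1 FPKM in 3 or more libraries were tested on log2(FPKM + 1) in R 4.3.3, using limma 3.58.1. The fit used all 12 libraries with a mean for each group and an intensity trend, without further scaling, with 8 residual and 3.28 prior degrees of freedom. Tests were two-sided with Benjamini-Hochberg adjustment over all genes and a threshold of 0.05. Within-library differences were tested with exact permutation (SciPy 1.17.1). Promoter windows are RefSeq's for GRCr8, and loci are the deposited rn6 ones; no coordinate was converted.

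The 10 genes and all lists were chosen with earlier results of these data known. From each further list, up to 5 genes past the threshold with the smallest p were eligible for naming, and every gene of the further VEGF and Tie list. Exceptions chosen after their values were seen are Dll4, Hif1a, Epas1, Cdh5, Acta1, Mcph1, Cspg4, Des, C1qa, C1qb, Mrc1 and the adipocyte markers named. So are Eng, Ecscr, Vldlr, P4ha2 and Adm. Vegfd was looked up as Figf. Pecam1, Hspg2, Egln1, Ca9, Ca12, Robo4, Myh2 and Col1a2 were not analysed here. Alternatives covered filters, pseudocounts, scalings, other fits, the replicate number as a block, and leaving out libraries.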

Additional observations from a re-analysis of the deposited data

Results flagged for a closer look

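The difference between the materials changed with time for 3 of the 10 genes, by limma's test of the difference itself. For Angpt2 the MFN+GelMA minus GelMA difference at 4 weeks was 2.28 log2 units lower than that at 2 weeks (interaction term -2.28), for Angpt4 1.88 lower (-1.88) and for Kdr 1.74 lower (-1.74). Kdr missed the threshold with no filter on low values (limma adjusted p = 0.0649) and in 8 of the 12 fits that each left out a library. The material difference of Angpt2 was -1.62 at 4 weeks and 0.66 at 2 weeks, that of Angpt4 -2.11 at 4 weeks and -0.23 at 2 weeks, and that of Kdr -1.30 at 4 weeks and 0.44 at 2 weeks.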

How the results depend on the processing

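The 4-week calls of Angpt1, Angpt2 and Angpt4 held in all 12 fits that left out a library and in all 16 other fits, and those of Kdr and Tek in all 16 other fits. These 16 include limma on the count-like values in place of FPKM, chosen after seeing the data. Over the leave-one-out fits, the number of the 10 genes called was 3 to 6 at 4 weeks, 2 to 6 for time in MFN+GelMA, 0 to 1 for time in GelMA, 2 to 4 for the interaction and 0 at 2 weeks. With only the libraries compared in the fit, time in GelMA gave 0. The planned count model (edgeR) was not run, because values under 1 step prevent whole reads from being recovered. Over all genes, the 2-week count was 61, and 6 to 386 in the alternatives. That for time in GelMA was 274, and 4 to 409. That for the interaction was 1727, and 925 to 1809 (925 without GelMA 4W replicate 1). That for time in MFN+GelMA was 2367, and 1506 without MFN+GelMA 4W replicate 1. Scaling each library to 1 sum moved the median of all genes at 4 weeks by -0.11. Deviations of libraries with the same replicate number correlated at 0.31 and 0.37 for numbers 2 and 3 of GelMA 2W and GelMA 4W. The other correlations were -0.06 to 0.08. No baseline from unlike numbers was computed, so whether the numbers pair the libraries was not tested. With the number as a block over all libraries, 0, 5, 4, 4 and 1 of the 10 genes were called at 2 weeks, at 4 weeks, in the interaction and over time in MFN+GelMA and GelMA. The one added call was the Tek interaction (limma adjusted p = 0.0405 over all libraries, 0.0465 within each week).

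Direction turned, the cause not tested, for values that were not called. At 2 weeks Vegfa was -0.00817 under median-ratio, -0.00957 under upper-quartile, -0.0182 and -0.0278 when each library was scaled to 1 sum, with and without mitochondrial genes, and -0.0105 on count-like values. Without the 3 libraries that stood apart, Kdr was -0.21 and Tek -0.28 at 2 weeks, and Kdr -0.39, Vegfc -0.10, Angpt1 -0.11 and Tek -0.00944 for time in GelMA. Leave-one-out ranges that crossed 0 were, at 2 weeks, -0.26 to 0.15 for Vegfa, -0.0758 to 0.77 for Kdr and -0.17 to 0.67 for Tek. For Flt1 they were -0.24 to 0.00885 at 4 weeks and -0.23 to 0.0511 for time in MFN+GelMA. For time in GelMA they were -0.0315 to 0.42 for Vegfa, -0.11 to 0.20 for Vegfc, -0.27 to 0.58 for Kdr and -0.0934 to 0.32 for Angpt1. With Cdh5 and Cldn5 as the only markers, the 4-week difference relative to endothelial markers was 0.0551 for Kdr and 0.15 for Tek. At 2 weeks, Angpt2 over Angpt1 was -0.00693 with a pseudocount of 0.1 and -0.44 to 0.38 leaving out libraries, and Vegfa over Kdr -0.73 to 0.14.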
